A study of Saccharomyces cerevisiae with 24 samples.

Results

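The 10 genes described here encode the enzymes of lower glycolysis in Saccharomyces cerevisiae, budding yeast. They are FBA1 (YKL060C), TPI1 (YDR050C), TDH1 (YJL052W), TDH2 (YJR009C), TDH3 (YGR192C), PGK1 (YCR012W), GPM1 (YKL152C), ENO1 (YGR254W), ENO2 (YHR174W) and CDC19 (YAL038W). They were taken by these systematic open reading frame names, and all 10 had a probe among 5674 protein-coding genes on the array. RefSeq names (assembly R64) matched the list for each of them. All 10 gene spans in that annotation are multiples of 3 bases, as a single uninterrupted reading frame requires. They lie on chromosomes XI (FBA1, GPM1), IV (TPI1), X (TDH1, TDH2), VII (TDH3, ENO1), III (PGK1), VIII (ENO2) and I (CDC19).

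Glycolysis splits a sugar phosphate into triose phosphates and turns these into pyruvate, with a net gain of ATP. Budding yeast growing on glucose ferments most of its sugar, and its lower glycolysis genes are among the most strongly transcribed of the genome. None of them carries an intron. The spliceosome removes introns in an ordered way: the U1 snRNP meets the 5' splice site, BBP and Mud2 meet the branch point, the U2 snRNP replaces them there, the U4/U6.U5 tri-snRNP joins, and the complex is then activated. In yeast these factors assemble on the nascent transcript while RNA polymerase II is still on the gene, so that chromatin immunoprecipitation can detect them. Genes without introns show what such a signal amounts to where no splice site is present.

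Each of 24 columns holds 1 log2 ratio per spotted reading frame from ChIP-chip, chromatin immunoprecipitation followed by hybridisation to an array. In all likelihood it is immunoprecipitate over whole-cell extract, since the labels name these as the first and second channel, while the direction of the combined values is not stated. The 12 unperturbed profiles followed Prp40-9myc (U1 snRNP), BBP-3HA, Mud2-13myc, Lea1-13myc and Prp11-13myc (U2 snRNP), Prp5-9myc (an ATPase needed for U2 snRNP binding), Prp2-13myc and Prp19-9myc (activation), Brr2-13myc (the U5 snRNP helicase), Sub2-3HA (a helicase of splicing and mRNA export), Spt5-9myc (an elongation factor) and RNA polymerase II. Each tag sat at the C-terminus of the factor's own gene, and cells grew in rich medium to an optical density of 0.6, a condition the labels do not give for BBP. A second set held Prp40-9myc and Mud2-13myc cells fixed for a shorter time, with RNase or without it, and Prp40-9myc cells in rich medium that lacked the nuclear cap-binding complex.

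In the third set, Prp40-3myc cells grew in medium without uracil, either with the spt5_194 mutation, with 80 µg/ml 6-azauracil for 30 minutes, or as a control. The last set held Lea1-13myc and Brr2-13myc in the heat-sensitive sub2-85 mutant and in SUB2 wild type, all grown in medium without histidine, warmed for 5 minutes and kept at 37 °C for 30 minutes. The sources used here do not give strain backgrounds, the deleted gene of the cap-binding complex or the reagent for RNA polymerase II.

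Each column already combines 2 (RNA polymerase II) to 6 (Sub2) biological replicates, so each group is 1 sample, no spread between replicates can be given and no test was possible. Whether 2 neighbouring values in any order below differ beyond replicate error is therefore unknown. None of the 240 values of the 10 genes was missing or at the limit of the scale. Pearson's r between columns, taken over all probes, was under -0.3 for 3 pairs: Mud2 profile with 6-azauracil (-0.34), Mud2 with RNase and spt5_194 (-0.36), and Mud2 with RNase and Lea1 in SUB2 wild type (-0.32). Spearman's values for the same pairs were -0.40, 0.05 and 0.04, so both pairs with the RNase column were negative by Pearson's r alone. The direction of these 5 columns is treated as not settled, and values with their sign turned are given beside the main results. As deposited, 50 of 54 ribosomal protein genes with an intron reached 1 in the Mud2 profile. Spearman's correlation with RNA polymerase II over all genes was 0.37 for spt5_194, 0.27 for 6-azauracil and 0.14 for the Mud2 profile. A value of 1 or more, that is a ratio of 2-fold or more, was the threshold for counting a gene.

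**Figure D1:**
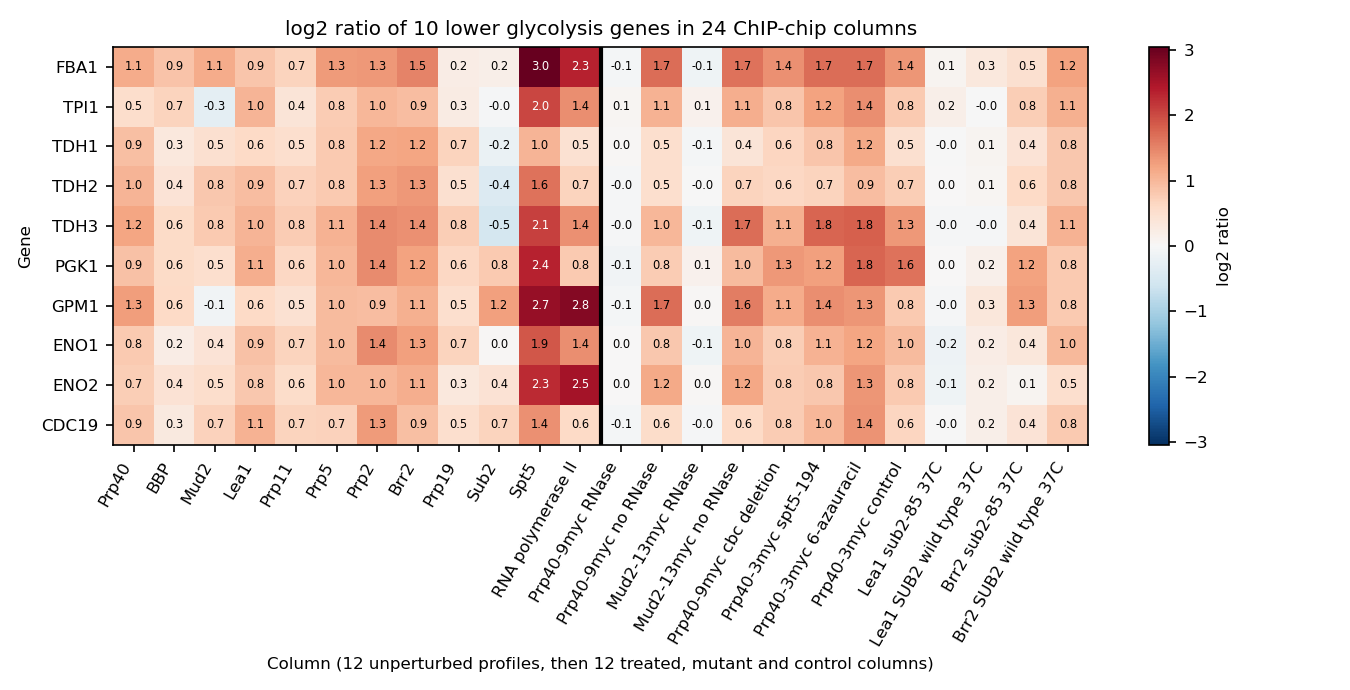
Log2 ratio of the 10 genes (rows) in the 24 columns, 12 unperturbed profiles left of the black line and 12 treated, mutant and control columns right of it; red is above 0 and blue below. The highest cell is FBA1 for Spt5 at 3.05, and the Prp40 and Mud2 columns with RNase and the Lea1 column in sub2-85 lie close to 0 throughout.

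Transcription of the 10 genes was examined first, since the list is described as strongly transcribed. For RNA polymerase II, GPM1 (phosphoglycerate mutase) stood at 2.79, ENO2 (an enolase) at 2.54 and FBA1 (fructose bisphosphate aldolase) at 2.35. A middle group followed, with ENO1 (the other enolase) at 1.42, TPI1 (triose phosphate isomerase) at 1.41 and TDH3 (a glyceraldehyde phosphate dehydrogenase) at 1.39. PGK1 (phosphoglycerate kinase) had 0.80, and the isoenzyme genes TDH2 and TDH1 had 0.68 and 0.46. CDC19, the pyruvate kinase gene, had 0.61. In all, 6 of 10 reached 1, against 8.51% of all genes, and 6 lay above the 95th percentile of genes. TDH1, TDH2, PGK1 and CDC19 stood at percentiles 80.1, 85.7, 88.4 and 83.9, so the polymerase column places these 4 below the top of the genome. After quantile normalisation of all columns the median of the 10 genes was 0.76 in place of 1.40.

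Spt5, which travels with the elongating polymerase, was high on every member. FBA1 had 3.05 and was the fifth highest of 5637 genes. GPM1 had 2.66, PGK1 2.35, ENO2 2.27, TDH3 2.09, TPI1 2.03, ENO1 1.90, TDH2 1.64, CDC19 1.38 and TDH1 1.04. All 10 reached 1, against 6.79% of all genes, and 6 exceeded the 99th percentile. The 4 members below the top of the polymerase column stood higher for Spt5, PGK1 at percentile 99.7, TDH2 at 97.8, CDC19 at 96.1 and TDH1 at 93.6. TDH1 came last in both columns.

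Neighbouring genes served as a check of how far the signal extends. Among 18 measured neighbours of the 10 genes the polymerase median was 0.18, and 3 reached 1, namely CTR2 and NNR2 at 1.19 each beside ENO2 and GPM1, and BLI1 at 1.14 beside FBA1. For Spt5 the neighbours had a median of -0.02, with CTR2 at 1.39 and BLI1 at 1.32. For Prp40 the neighbour median was -0.12 and the highest value 0.48, at NNR2, and for Brr2 these were 0.08 and 0.45. For Prp40 and Brr2 every neighbour was below every member. For the polymerase TDH2 had 0.68, below its neighbour MHO1 at 0.79, and CTR2 and BLI1 exceeded some members for Spt5. For Prp2, TPI1 had 1.01 and its neighbour DET1 1.12, and ENO2 had 1.01 and CTR2 1.02. For Mud2, 3 neighbours reached 1, and BLI1 had 1.89, above FBA1 at 1.12.

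The splicing factors were then followed over the same genes in the order in which they act. Prp40 had 1.27 on GPM1, 1.21 on TDH3, 1.12 on FBA1, 1.04 on TDH2, 0.92 on TDH1, 0.88 on PGK1, 0.85 on CDC19, 0.81 on ENO1, 0.74 on ENO2 and 0.53 on TPI1. Every member was above 0, and 4 of 10 reached 1, against 3.39% of all genes. After quantile normalisation 1 did. The median of 0.90 lay far below that of 54 ribosomal protein genes with an intron, 2.12. These 54 were taken as ribosomal protein genes whose span is not a multiple of 3 bases, so that it cannot be 1 reading frame. Only 4 of the 54 had a Prp40 value below that of GPM1.

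BBP, which binds the branch point sequence, reached 0.86 on FBA1, 0.68 on TPI1, 0.62 on GPM1 and 0.58 on both TDH3 and PGK1. It had 0.43 on TDH2 and ENO2, 0.32 on TDH1, 0.29 on CDC19 and 0.23 on ENO1. No member reached 1, as did 1.04% of all genes. The median was 0.50 (0.84 after quantile normalisation), against 0.87 for ribosomal protein intron genes.

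Mud2, the partner of BBP at the branch point, had the widest range over the members among the early factors, 1.41. Its column was also wide over all genes, from -1.06 at the 5th to 1.82 at the 95th percentile. Mud2 had 1.12 on FBA1, 0.83 on TDH2, 0.79 on TDH3, 0.70 on CDC19, 0.55 on ENO2, 0.52 on PGK1, 0.49 on TDH1 and 0.42 on ENO1. On GPM1 it had -0.10 and on TPI1 -0.29, although both were high for the polymerase. FBA1 alone reached 1, against 12% of all genes, so the share of members was near that of the genome, and none did with the sign turned. No member exceeded the 95th percentile of this broad column. The median was 0.53 (0.23 after quantile normalisation, -0.53 with the sign turned), and that of ribosomal protein intron genes 2.21.

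The U2 snRNP proteins differed from each other in scale. Lea1 had 1.10 on PGK1, 1.07 on CDC19, 1.04 on TPI1 and TDH3, 0.95 on TDH2, 0.90 on ENO1, 0.86 on FBA1, 0.82 on ENO2, 0.61 on GPM1 and 0.60 on TDH1. Its order put the 3 genes with the highest polymerase values, FBA1, ENO2 and GPM1, in the lower part. Counting members at 1 gave 4 of 10, against 3.28% of all genes, and 0 after quantile normalisation. Prp11 had 0.78 on TDH3, 0.69 on FBA1 and TDH2, 0.68 on ENO1 and CDC19, 0.64 on PGK1, 0.56 on ENO2, 0.51 on TDH1, 0.47 on GPM1 and 0.40 on TPI1. None reached 1, as did 1.08% of all genes, yet all 10 lay above the 95th percentile of this narrow column, and its median of 0.66 was 1.10 after quantile normalisation.

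Prp5 was high relative to other genes on every member. It had 1.29 on FBA1, 1.06 on TDH3, 1.02 on PGK1 and ENO2, 0.97 on ENO1, 0.95 on GPM1, 0.80 on TDH1, 0.79 on TDH2, 0.77 on TPI1 and 0.69 on CDC19. The lowest of these was still at percentile 97.4, and 4 of 10 reached 1, against 1.24% of all genes. The median of 0.96 nearly equalled that of ribosomal protein intron genes, 0.97, and 49 of these 54 genes lay below FBA1.

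Of the factors of later steps, Prp2 and Brr2 had higher medians on the 10 genes than on ribosomal protein intron genes in these profiles. For Brr2 in SUB2 wild type at 37 °C the order was the opposite, 0.82 against 1.45. Prp2, the ATPase of spliceosome activation, had 1.45 on PGK1, 1.44 on TDH3, 1.43 on ENO1, 1.31 on FBA1, 1.30 on CDC19, 1.26 on TDH2, 1.18 on TDH1, 1.01 on both TPI1 and ENO2 and 0.93 on GPM1. Here 9 of 10 reached 1, against 3.81% of all genes. The median was 1.28, against 0.94 for the 54 ribosomal protein intron genes.

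Brr2, which unwinds U4 from U6, had 1.52 on FBA1, 1.39 on TDH3, 1.32 on TDH2, 1.26 on ENO1, 1.21 on PGK1, 1.20 on TDH1, 1.11 on ENO2, 1.07 on GPM1, 0.94 on TPI1 and 0.92 on CDC19. At 1 or more there were 8 of 10, against 3.10% of all genes. The median of 1.21 compared with 0.34 for ribosomal protein intron genes, of which 52 of 54 lay below FBA1. Averaging the isoenzyme genes into 1 value each, which shortens the list, left 5 values at 1 or more. For Spt5, where all 10 members reached 1, the same averaging left 7. The Brr2 and Prp2 values of the 10 genes spanned 0.59 and 0.51, while those for the polymerase spanned 2.33.

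Prp19, the core of a complex that stabilises the activated spliceosome, was weaker. TDH3 had 0.76, ENO1 0.69, TDH1 0.67, PGK1 0.64, GPM1 and CDC19 0.51, TDH2 0.49, ENO2 0.32, TPI1 0.26 and FBA1 0.22. FBA1, the highest member for BBP, Mud2, Prp5, Brr2 and Spt5, was the lowest here. None reached 1, as did 2.13% of all genes, and the median was 0.51, against 0.86 for ribosomal protein intron genes.

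Sub2 lay on both sides of 0 on the members, in a column whose median over all genes was 0.005. The 5th and 95th percentiles of all genes for Sub2 were -1.05 and 0.95. Sub2 was above 0 on GPM1 (1.25), PGK1 (0.81), CDC19 (0.68), ENO2 (0.43), FBA1 (0.18) and ENO1 (0.04). It was below 0 on TPI1 (-0.04), TDH1 (-0.20), TDH2 (-0.42) and TDH3 (-0.53). All 3 TDH genes were thus below 0, the lowest of them, TDH3, at percentile 17.8 of all genes. At 1 or more there was 1 of 10 members, against 4.20% of all genes. The median of 0.11 was close to that of ribosomal protein intron genes, 0.05, and stood at percentile 58.3 of all genes.

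**Figure D2:**
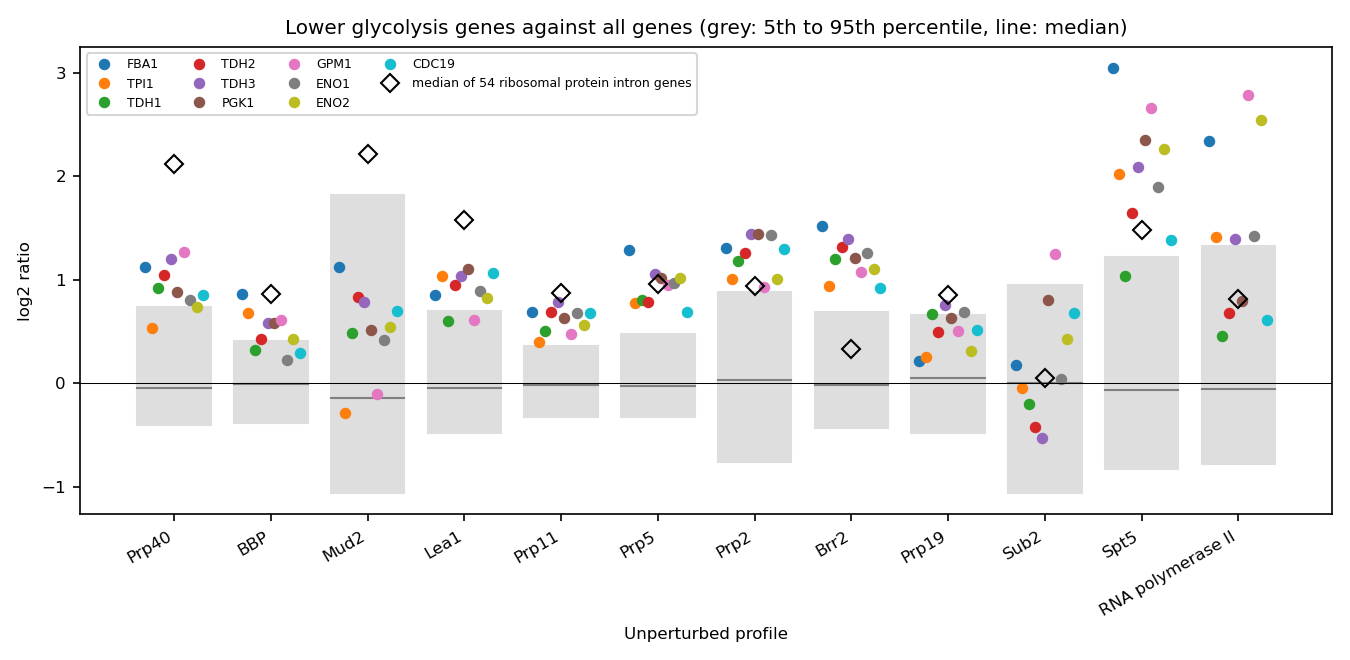
Log2 ratio (vertical axis) of each of the 10 genes (coloured points) in the 12 unperturbed profiles, with the 5th to 95th percentile of all genes as grey bars, their median as a grey line and the median of 54 ribosomal protein intron genes as a diamond. The diamond lies above all 10 points for Prp40, BBP, Mud2, Lea1, Prp11 and Prp19, and below all 10 for Brr2.

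Each factor was also set against the polymerase. Over all genes Spearman's correlation with the polymerase was 0.66 for Spt5, 0.47 for Prp40, 0.45 for Prp5, 0.38 for Brr2 and 0.26 for Lea1. It was 0.19 for BBP and Prp19, 0.17 for Prp11, 0.16 for Prp2, 0.14 for Mud2 and 0.03 for Sub2. A lowess curve of the factor on RNA polymerase II was fitted over all genes, and the residual is the log2 ratio of a gene minus the curve at its polymerase value. The median residual of the 10 genes was 1.11 for Prp2, 0.96 for Spt5, 0.85 for Brr2, 0.78 for Lea1, 0.68 for Prp5 and 0.62 for Prp40. It was 0.57 for Mud2 (-0.57 with the sign turned), 0.55 for Prp11, 0.39 for Prp19, 0.36 for BBP and 0.01 for Sub2. Among the residuals of all genes, the members had a median percentile of 98.3 for Prp5 and Spt5. It was 89.1 for Prp19, 76.9 for Mud2 and 50.6 for Sub2, and between 94.3 (BBP) and 97.8 (Prp2) for the other factors. All these residuals share the same polymerase column. Few genes define the curve at its upper end, where 67 genes were as high as FBA1 or higher.

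With Spt5 in place of the polymerase as the measure of transcription, the medians were smaller. They were 0.44 for Brr2, 0.40 for Prp2, 0.33 for Lea1, 0.24 for Prp5, 0.19 for Prp11, 0.14 for Prp19, 0.07 for BBP and 0.06 for Prp40, and -0.45 for Mud2. How far a factor exceeds what transcription predicts on these genes therefore depended on which column stood for transcription.

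Single genes differed widely in this respect. TDH2 had polymerase residuals of 1.19 for Brr2, 0.94 for Prp40 and 0.88 for Mud2, each the highest of the 10 members. PGK1 had the highest for Spt5 (1.79), Prp2 (1.31) and Prp5 (0.88). GPM1 had the lowest for Lea1 (0.24), Prp11 (0.28), Prp5 (0.38), Prp2 (0.36), Brr2 (0.21) and Mud2 (-0.43), and the highest for Sub2 (1.09). ENO2 stood on the curve for Prp40, with 0.02.

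**Figure D3:**
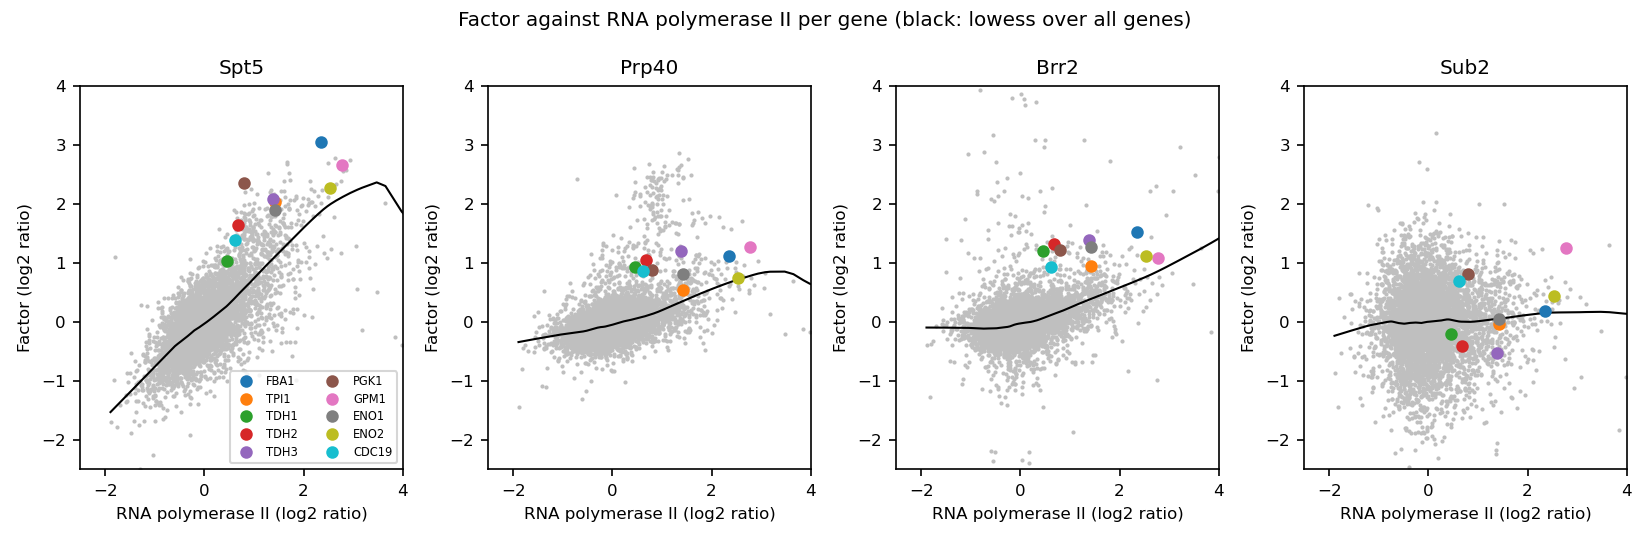
Log2 ratio of Spt5, Prp40, Brr2 and Sub2 (vertical axes) against that of RNA polymerase II (horizontal axis) for all genes (grey), with the lowess curve (black) and the 10 genes (coloured); some genes lie outside the axes drawn. The members lie above the curve for Spt5 and Brr2, between 0.02 (ENO2) and 0.94 (TDH2) above it for Prp40, and on both sides of it for Sub2.

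Isoenzymes were compared because budding yeast has 3 genes for glyceraldehyde phosphate dehydrogenase and a pair for enolase. TDH3 codes for the main enzyme in growing cells and TDH1 for the one associated with stationary phase. For RNA polymerase II, TDH3, TDH2 and TDH1 had 1.39, 0.68 and 0.46, and for Spt5 they had 2.09, 1.64 and 1.04. The median difference over 24 columns was 0.27 for TDH3 minus TDH1, with TDH3 higher in 18 columns and the largest gap, 1.31, for Mud2 without RNase. TDH3 minus TDH2 had a median of 0.17, with a highest value of 1.09 in spt5_194. TDH2 minus TDH1 had a median of 0.05 and exceeded 0.5 in size in 1 of 24 columns, Spt5 (0.61).

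ENO2 is the enolase gene of glucose-grown cells, while ENO1 is expressed more evenly across carbon sources. ENO2 minus ENO1 was 1.12 for RNA polymerase II and 0.37 for Spt5. Over 24 columns its median was 0.00, with each gene higher in 12 columns, and the polymerase column was the only one in which the difference reached 0.5 in size. These genes are close in sequence, and spotted reading frames of close paralogs can share labelled DNA. The part of this in their values was not tested.

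Short fixation and RNase were used to ask whether factors are held on genes through RNA. Prp40 with RNase had values between -0.11 (PGK1) and 0.05 (TPI1) on the 10 genes. Without RNase it had 1.71 on FBA1, 1.70 on GPM1, 1.15 on ENO2, 1.06 on TPI1, 1.02 on TDH3, 0.82 on ENO1, 0.77 on PGK1, 0.56 on CDC19 and 0.52 on TDH1 and TDH2, so that 5 of 10 reached 1, against 4.92% of all genes (1 after quantile normalisation). Every value with RNase lay below every value without it. The differences ran from -1.77 for GPM1 and FBA1 to -0.48 for TDH1, with a median of -0.94. All 10 members were lower with RNase, against 34.9% of all genes, and none was higher, against 65.0%. By 1 or more, 5 were lower, against 4.79%. The median difference of all genes was 0.10. Over all genes the RNase column was narrow, from -0.17 at the 5th to 0.16 at the 95th percentile. The differences and these counts therefore largely restate the values without RNase.

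For Mud2 the picture was alike. With RNase the 10 genes had -0.14 (FBA1) to 0.14 (PGK1). Without it TDH3 had 1.71, FBA1 1.66, GPM1 1.56, ENO2 1.17, TPI1 1.12, ENO1 1.04, PGK1 0.96, TDH2 0.67, CDC19 0.61 and TDH1 0.40, so that 6 of 10 reached 1, against 3.98% of all genes (3 after quantile normalisation). Again no value with RNase reached the lowest value without it. The differences ran from -1.84 (TDH3) to -0.45 (TDH1), with a median of -1.06, lower in 10 of 10 members, against 42.8% of all genes, and by 1 or more in 5, against 3.70%. None was higher, against 57.1%. With the sign of the RNase column turned its values still span -0.14 to 0.14. Over all genes this column was narrow as well, from -0.16 at the 5th to 0.21 at the 95th percentile. The Mud2 differences and counts thus also largely restate the values without RNase.

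Ribosomal protein intron genes had median differences of -2.18 for Prp40 and -1.90 for Mud2 in the same comparisons. Their medians were 0.15 with RNase and 2.37 without it for Prp40, and 0.01 and 1.83 for Mud2. The median of the 10 glycolysis genes for Prp40 with RNase was -0.04, at percentile 32.9 of all genes. Averaging isoenzyme genes, which shortens the list, left 3 values lower by 1 or more for each factor, and quantile normalisation left 2 for Prp40.

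**Figure D4:**
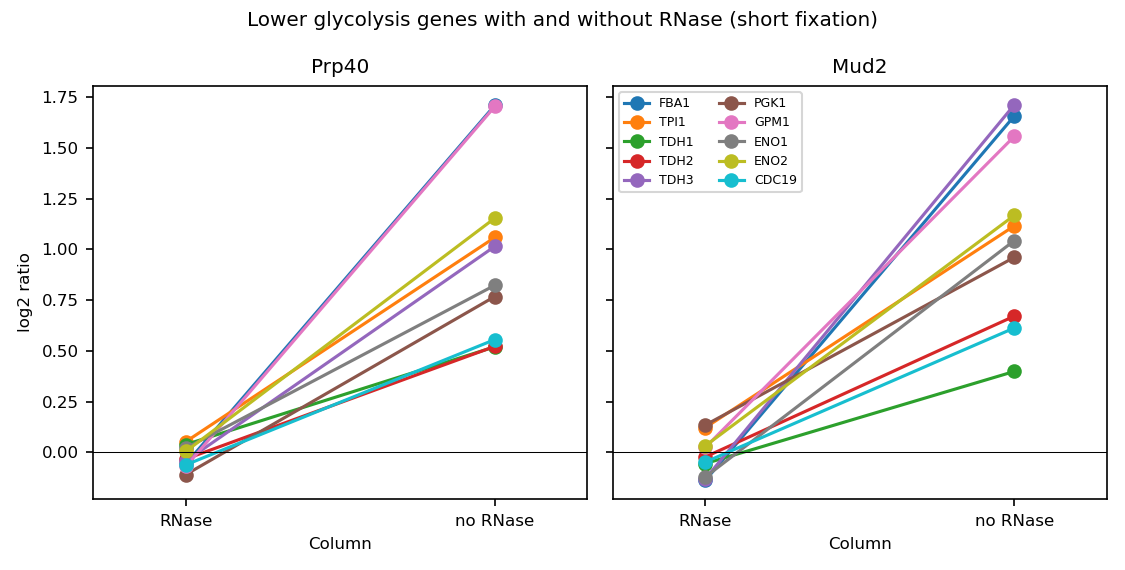
Log2 ratio of the 10 genes for Prp40 and Mud2 with RNase (left of each panel) and without it (right), 1 line per gene, all after short fixation. With RNase all points lie between -0.14 and 0.14, and without it between 0.40 and 1.71.

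The columns without RNase, from cells fixed for a shorter time, were set against the standard profile of each factor. They belong to separate sets of samples, so fixation time cannot be told apart from other differences between the sets. The Prp40 values of the 10 genes took another order after short fixation. FBA1 was higher by 0.59, TPI1 by 0.53, GPM1 by 0.44 and ENO2 by 0.41, while differences of -0.52 for TDH2, -0.40 for TDH1, -0.30 for CDC19, -0.19 for TDH3 and -0.11 for PGK1 went the other way, and ENO1 had 0.02. The median difference was -0.05 (0.21 with isoenzyme genes averaged), with 5 of 10 lower, against 54.7% of all genes. That of ribosomal protein intron genes was 0.44, with 16 of 54 lower. Spearman's rho with RNA polymerase II across the 10 genes, a description only, was 0.92 after short fixation and 0.08 in the standard profile. Across all genes these were 0.49 and 0.47. Pearson's r between the short-fixation column and the standard profile over all genes was 0.83 for Prp40 and 0.30 for Mud2.

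Mud2 after short fixation was higher on GPM1 by 1.66 (1.56, against -0.10 in the profile) and on TPI1 by 1.40 (1.12, against -0.29). TDH3 was higher by 0.92, ENO1 and ENO2 by 0.62, FBA1 by 0.53 and PGK1 by 0.45. CDC19 (-0.08), TDH1 (-0.09) and TDH2 (-0.16) differed little. The median difference was 0.58 (1.47 with the sign of the Mud2 profile turned), that of all genes 0.14, and 2 of 10 members were higher by 1 or more, against 5.96% of all genes. That count was 8 with the sign of the Mud2 profile turned and 1 after quantile normalisation. The 2 genes at which the Mud2 profile was below 0 were thus among the 5 highest after short fixation. Ribosomal protein intron genes had a median difference of -0.39, with 44 of 54 lower.

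Prp40 without the cap-binding complex, which binds the 5' cap of nascent transcripts, stayed near the profile. FBA1 had 1.39 in the deletion, PGK1 1.33, GPM1 1.13, TDH3 1.07, TPI1 0.83, CDC19 0.77, ENO1 and ENO2 0.76 and TDH1 and TDH2 0.64. In the deletion 4 of 10 reached 1, against 3.23% of all genes. The differences were 0.45 for PGK1, 0.30 for TPI1 and 0.27 for FBA1 at the upper end, and -0.41 for TDH2 and -0.28 for TDH1 at the lower end. Their median was -0.07, with 6 of 10 lower, against 57.9% of all genes, and 4 higher, against 42.0%. None was higher by 1 or more, against 0.0887%, or lower by it, against 0.763%. The median difference of ribosomal protein intron genes was -0.26.

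The elongation experiment followed Prp40-3myc in medium without uracil. In spt5_194 TDH3 had 1.77, FBA1 1.69, GPM1 1.43, TPI1 and PGK1 1.24, ENO1 1.06, CDC19 1.02, TDH1 0.84, ENO2 0.83 and TDH2 0.68. With 6-azauracil, which lowers nucleotide pools and thereby slows elongation, TDH3 had 1.82, PGK1 1.77, FBA1 1.71, TPI1 1.42, CDC19 1.37, GPM1 1.35, ENO2 1.34, ENO1 1.21, TDH1 1.16 and TDH2 0.95. In the control PGK1 had 1.64, FBA1 1.35, TDH3 1.32, ENO1 0.96, GPM1 0.80, TPI1 and ENO2 0.79, TDH2 0.75, CDC19 0.65 and TDH1 0.48.

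Members at 1 or more numbered 7 in spt5_194, 9 with 6-azauracil and 3 in the control, against 1.06%, 0.916% and 0.952% of all genes. With the sign turned 0 of 10 members reach 1, or stand above 0, in spt5_194 and with 6-azauracil. The median of the 10 genes was 1.15 in spt5_194, 1.36 with 6-azauracil and 0.80 in the control, where ribosomal protein intron genes had 0.54, -0.11 and 0.47. With quantile normalised columns the 10 genes had 1.93, 2.68 and 1.22. With the sign turned the spt5_194 and 6-azauracil medians are -1.15 and -1.36.

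Relative to the control, 6-azauracil gave higher values on 10 of 10 genes, against 54.6% of all genes, from 0.13 for PGK1 to 0.73 for CDC19, with a median of 0.52 (1.31 after quantile normalisation, -2.16 with the sign of the 6-azauracil column turned). None was higher by 1, as were 0.881% of all genes, although 8 were after quantile normalisation. In spt5_194, 8 of 10 were higher, against 54.8% of all genes. GPM1 had 0.62, TPI1 and TDH3 0.44, CDC19 0.38, TDH1 0.36 and FBA1 0.34, while PGK1 had -0.40 and TDH2 -0.07. None differed by 1 or more in either direction, against 2.20% of all genes lower and 0.705% higher. The median was 0.35 (0.59 after quantile normalisation, -2.02 with the sign of the spt5_194 column turned). Both comparisons share the same control column. Ribosomal protein intron genes had median differences of -0.61 with 6-azauracil and 0.05 in spt5_194.

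The Prp40-3myc control differs from the Prp40-9myc profile in tag length and in medium, which cannot be told apart. PGK1 was higher in the control by 0.76, TPI1 by 0.26 and FBA1 by 0.23, and GPM1 differed by -0.46, TDH1 by -0.44 and TDH2 by -0.30. The median difference of the 10 genes was 0.08 (0.58 after quantile normalisation), with 6 of 10 higher, against 50.5% of all genes. That of ribosomal protein intron genes was -1.53, with 53 of 54 lower.

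Growth at 37 °C in medium without histidine separated both factors of the Sub2 experiment. Lea1 in SUB2 wild type had 0.34 on GPM1, 0.32 on FBA1, 0.24 on ENO1, 0.18 on ENO2 and CDC19, 0.15 on PGK1, 0.08 on TDH1, 0.05 on TDH2, -0.02 on TPI1 and -0.03 on TDH3. Each was below the value of the same gene in the Lea1 profile, and none reached the lowest value there, 0.60. The median was 0.17 at 37 °C (-0.17 with the sign turned), against 0.92 in the profile, and the median difference was -0.77, lower in 10 of 10 members, against 44.3% of all genes. TPI1 and TDH3 were lower by 1 or more (-1.06 each), against 3.39% of all genes. That count was 7 with the sign of the 37 °C column turned and 1 after quantile normalisation. The fall was not particular to the glycolysis genes, since ribosomal protein intron genes had a median difference of -0.92, with 50 of 54 lower.

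Brr2 in SUB2 wild type at 37 °C kept much of its signal. It had 1.22 on FBA1, 1.08 on TPI1, 1.07 on TDH3, 0.98 on ENO1, 0.82 on TDH2, 0.81 on TDH1, 0.80 on GPM1, 0.79 on PGK1 and CDC19 and 0.51 on ENO2. The 3 members that reached 1 compare with 3.35% of all genes. Relative to the Brr2 profile, 9 of 10 members were lower, against 54.2% of all genes, with a median of -0.31 and a range from -0.60 (ENO2) to 0.14 (TPI1). Ribosomal protein intron genes went the other way, with a median difference of 1.12 and 2 of 54 lower. The median at 37 °C was 0.82 for the glycolysis genes and 1.45 for these intron genes. Temperature and medium changed together in these comparisons and cannot be told apart. Over all genes, Pearson's r between the 37 °C wild-type column and the profile was 0.11 for Brr2 and 0.15 for Lea1.

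Loss of Sub2 function was set against SUB2 wild type at the same temperature. For Lea1 in sub2-85 the 10 genes lay between -0.16 (ENO1) and 0.17 (TPI1), with a median of -0.02. The differences from wild type ran from -0.39 (ENO1) to 0.19 (TPI1), with 8 of 10 lower, against 51.8% of all genes, 2 higher, against 48.2%, and a median of -0.17 (0.11 with the sign of the wild-type column turned). The wild-type values were themselves 0.34 or lower on these genes, which limits how large a loss could be measured. In the same comparison ribosomal protein intron genes, with a wild-type median of 0.71, had a median difference of -0.57, with 53 of 54 lower.

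Brr2 in sub2-85 had 1.28 on GPM1, 1.23 on PGK1, 0.76 on TPI1, 0.61 on TDH2, 0.50 on FBA1, 0.42 on TDH1, 0.41 on CDC19, 0.40 on TDH3, 0.36 on ENO1 and 0.08 on ENO2. Here 2 of 10 reached 1, against 2.10% of all genes. Relative to SUB2 wild type, GPM1 was higher by 0.48 and PGK1 by 0.44. The other 8 were lower, against 48.9% of all genes, by differences of -0.72 for FBA1, -0.67 for TDH3, -0.62 for ENO1, -0.43 for ENO2, -0.39 for TDH1, -0.37 for CDC19, -0.33 for TPI1 and -0.21 for TDH2. No member was lower by 1 or more, against 2.61% of all genes. The median was -0.38, that of ribosomal protein intron genes -0.99 with 54 of 54 lower, and the robust SD of this difference over all genes was 0.39. GPM1 and PGK1 were also the 2 highest members in the Sub2 profile.

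**Figure D5:**
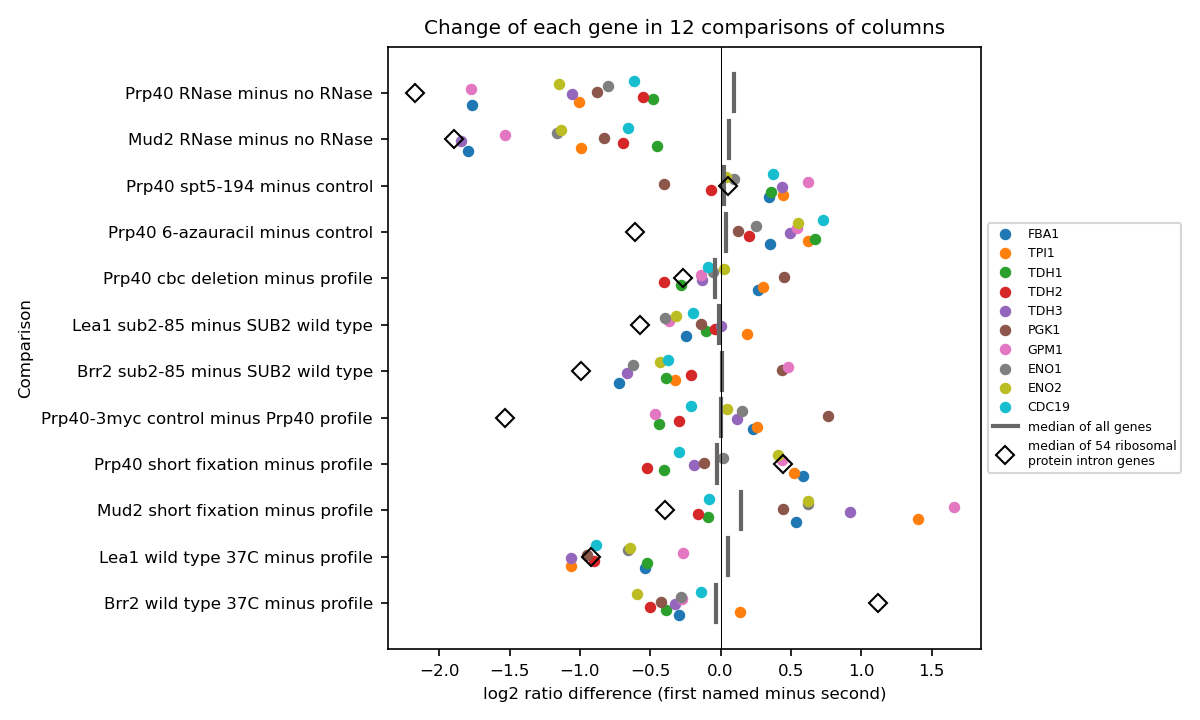
Difference in log2 ratio of each of the 10 genes (points) in 12 comparisons of columns, first named minus second, with the median of all genes (grey bar) and of 54 ribosomal protein intron genes (diamond). The RNase comparisons and Lea1 at 37 °C have all 10 points below 0, and 6-azauracil has all 10 above 0.

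Likeness of pattern was measured by Pearson's r over the 24 columns, each centred on its median and divided by its robust SD, which share the array design and, in part, the tagged factor. Among the 10 genes the 45 pairs had r from 0.67 (TDH2 with GPM1) to 0.94, with a median of 0.85. GPM1 stood furthest from the median pattern of the list, with r of 0.87, and TDH3 and ENO1 nearest, with 0.97 each. Each member helps to define that pattern, so its r cannot be set beside those of other genes. Among 5525 other genes with all values, the median r with that pattern was 0.02 and the 95th percentile 0.58. The 10 closest were PDC1 and ILV5 (0.96 each), PMA1 (0.92), CIS3, PDC5 and HSP150 (0.91 each), RPL10, CCW12 and PIR1 (0.90 each) and SED1 (0.88). PDC1 and PDC5 code for pyruvate decarboxylase, ILV5 for an enzyme of branched-chain amino acid synthesis, PMA1 for the plasma membrane proton pump, and CIS3, HSP150, CCW12, PIR1 and SED1 for cell wall proteins. With Spearman's rho in place of r, 6 of these 10 were again among the closest, and over the 12 unperturbed profiles 3 were.

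Other genes of sugar metabolism were read from lists of pathway members. Upper glycolysis (HXK1, HXK2, GLK1, PGI1, PFK1, PFK2), which phosphorylates glucose and commits it to the pathway, had lower medians than the 10 genes in the 12 profiles except Sub2. For Mud2 (0.53 for the 10 genes and 0.41 for upper glycolysis) this order is the opposite with the sign turned. Its medians were 0.99 for the polymerase, 1.11 for Spt5, 0.53 for Prp40, 0.60 for Prp2, 0.43 for Brr2 and 0.17 for Sub2. PFK1, a phosphofructokinase subunit, reached 1.46 for Prp2 and 1.01 for Prp40, and PGI1, phosphoglucose isomerase, 1.04 for Prp40. HXK1 and GLK1, sugar kinases that glucose represses, stood at -0.10 and 0.01 for Prp40. HXK1 nevertheless had 0.81 for the polymerase, at percentile 88.6 of all genes. For Prp40, 4 of 6 genes of the list were lower with RNase than without, against 34.9% of all genes. By 1 or more, 2 were, against 4.79% of all genes.

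The list from pyruvate to ethanol held the pyruvate decarboxylase and alcohol dehydrogenase genes PDC1, PDC5, PDC6, ADH1 and ADH2. Its medians were 2.05 for the polymerase, 1.97 for Spt5, 0.77 for Prp40, 1.14 for Brr2 and 0.85 for Prp2. Its genes were not alike, with values from 0.66 to 2.63 for the polymerase and from 0.26 to 1.76 for Prp40. ADH1, the alcohol dehydrogenase of fermenting cells, had 1.76 for Prp40, above all 10 lower glycolysis genes. With RNase, Prp40 was lower on 5 of 5, against 34.9% of all genes, with a median difference of -1.61.

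Minor paralogs of the lower glycolysis enzymes, which glucose-grown cells hardly use, had a highest value of 0.38 over the polymerase, Spt5, Prp40, Prp2 and Brr2 profiles. The median over GPM2, GPM3, PYK2, ERR1, ERR2 and ERR3 was -0.62 for the polymerase and -0.72 for Spt5. For Prp40 their median was -0.27, for Prp2 -0.68 and for Brr2 0.09, and 0 of 6 reached 1 in any of these 5 columns. Their Mud2 median was -0.97, but GPM2 had 1.62 there, above all 10 members, and their Sub2 median was 0.29. Genes of gluconeogenesis and the glyoxylate cycle (FBP1, PCK1, ICL1, MLS1, MDH2), repressed by glucose, had medians of -0.16 for the polymerase, -0.33 for Spt5, -0.13 for Prp40, -0.25 for Prp2 and 0.19 for Brr2. MDH2 stood at the limit of the scale for Brr2, at 6.64, with 0.26 for the polymerase.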

How the data were processed

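The deposited table holds 1 log2 ratio per probe and sample. Per the labels, both DNA fractions went through linker-mediated PCR, took up Cy3 or Cy5 and were hybridised together to spotted reading frame arrays; at least 1 replicate had its dyes reversed, and Rosetta Resolver combined the replicates. The sources used here do not give the normalisation within arrays. Values in 18 of 24 columns reach plus or minus 6.64, the log2 of 100. Of 6284 probes, 5674 matched a nuclear protein-coding gene of RefSeq R64 and 610 were not used. The array's genome build is not stated, so no coordinates are given, and protein identity between isoenzymes was not computed.

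Values were used as deposited, with medians, percentiles and differences per gene. The lowess fit used a fraction of 0.3 and 3 iterations (statsmodels 0.14.6, Python 3.11.15) and was tested on simulated data. Robust SD is 1.4826 times the median absolute deviation. Arrays carry no depth, and their small number limits precision. The members and lists were chosen with earlier results of these data known. Named genes were the 10 members, all genes of the pathway lists, the 10 closest in pattern and the tagged factors' genes. Neighbours that are named were chosen by position, some after their values were seen. Alternatives were centring, quantile normalisation, means, averaged isoenzymes, a threshold of 1.5-fold, limit values left out, turned signs, and Spt5 or a straight line in the fit.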

Additional observations from a re-analysis of the deposited data

Results flagged for a closer look

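The same treatment was measured with a pair of factors in 4 cases, and a gene is listed here where its 2 differences had opposite signs. Each difference comes from single columns, so none of these contrasts was tested.

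In sub2-85 against SUB2 wild type, GPM1 had -0.37 for Lea1 and 0.48 for Brr2, a gap of -0.85. PGK1 had -0.14 for Lea1 and 0.44 for Brr2, a gap of -0.58. In the same contrast TDH3 had 0.00 and -0.67, a gap of 0.67, and TPI1 had 0.19 and -0.33, a gap of 0.52. With the sign of the Lea1 wild-type column turned, the Lea1 differences of GPM1, PGK1 and TDH3 change sign, while that of TPI1 stays above 0.

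After short fixation against the standard profile, the median of the 10 genes was -0.05 for Prp40 and 0.58 for Mud2, a gap of -0.63. TDH3 had -0.19 for Prp40 and 0.92 for Mud2, a gap of -1.11, and PGK1 had -0.11 and 0.45, a gap of -0.56. The sign of the Mud2 profile is unsettled.

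At 37 °C in SUB2 wild type against the profile in rich medium, TPI1 had -1.06 for Lea1 and 0.14 for Brr2, a gap of -1.20.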

How the results depend on the processing

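For 47 medians (24 levels, 12 differences, 11 residuals) 201 alternative values were computed, and 173 moved by less than the SD over the 10 genes, used here because no spread between replicates exists. Centring, means, averaged isoenzyme genes, a straight line and leaving out limit values moved no median by more, but the Prp40 short fixation median, -0.05, had the other sign with centred columns (0.00), means (0.05) and averaged isoenzymes (0.21). Quantile normalisation gave levels of 0.84 for BBP, 1.10 for Prp11, 1.35 for Prp5, -0.14 for Prp40 with RNase, 1.93 for spt5_194, 2.68 for 6-azauracil, 1.22 for the Prp40-3myc control and -0.11 for Lea1 in sub2-85. It gave differences of 1.31 for 6-azauracil and 0.58 for the Prp40-3myc control against the profile. Spt5 as predictor gave residuals of 0.0581 for Prp40, 0.0696 for BBP, -0.45 for Mud2, 0.33 for Lea1, 0.19 for Prp11, 0.24 for Prp5, 0.40 for Prp2, 0.44 for Brr2 and 0.14 for Prp19, and -0.02 for Sub2 (0.01 with the polymerase). Turned signs gave levels of -0.53 for the Mud2 profile, -1.15 for spt5_194, -1.36 for 6-azauracil and -0.17 for Lea1 in wild type. They gave differences of -2.02 for spt5_194, -2.16 for 6-azauracil, 0.11 for Lea1 in sub2-85 and 1.47 for Mud2 short fixation, and a Mud2 residual of -0.57. The cause of these moves was not tested.

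Counts of genes past the threshold moved by over 1.5 times in 22 of 48 cases at a threshold of 1.5-fold and in 18 after quantile normalisation. At 1 or more, quantile normalisation gave 1 for Prp40 (4 as deposited), 3 for BBP (0), 0 for Mud2 (1), 0 for Lea1 (4), 6 for Prp11 (0), 9 for Prp5 (4), 3 for the polymerase (6), 1 for Prp40 without RNase (5), 3 for Mud2 without RNase (6), 2 for the cap-binding deletion (4), 8 for the Prp40-3myc control (3) and 1 for Brr2 in SUB2 wild type (3). No paired analysis was possible because each group is 1 column of combined replicates, and for the same reason no replicate could be left out.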

Other observations

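Hexose transporters, which bring glucose into the cell, were examined with the pathway lists. HXT1 to HXT7 had a median of 0.23 for RNA polymerase II and 0.15 for Spt5. HXT1, the low-affinity transporter induced by high glucose, and HXT4 had 1.14 and 1.13 for the polymerase. For Prp40 the median of the list was -0.01, and for Brr2 -0.07. HXT1 reached 0.76 for Prp2, with 0.09 for Prp40.

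The glycerol branch, which drains triose phosphate from glycolysis, had a polymerase median of 1.15 over GPD1, GPD2, GPP1 and GPP2. GPP1, a glycerol phosphatase, had 1.23 for the polymerase, 1.24 for Spt5, 0.78 for Prp40, 0.75 for Prp2 and 0.63 for Brr2. GPD1, a glycerol phosphate dehydrogenase, had 1.08 for the polymerase, -0.20 for Spt5 and 0.14 for Prp40. Among regulators of glycolytic genes, TYE7 had 1.58 for Spt5 and 0.73 for Prp40. GCR1, the main activator and itself a gene with an intron, had 0.60 for the polymerase, 0.32 for Spt5 and 0.46 for Prp40.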
